A study of Homo sapiens with 6 samples.

Results

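The genes described here are 39 epithelial and mesenchymal identity genes, taken by name from the 58825 genes of the deposited table, which held 1 identifier for each name. They were chosen by what they encode: the parts of epithelial junctions, the keratins of simple and ductal epithelium, the factors that hold the epithelial program, the repressors that switch it off, products typical of mesenchymal cells, and 3 surface glycoproteins used as markers of carcinoma cell states. RNA-seq was performed on 6 samples of PANC-1, an established human cell line derived from a pancreatic ductal carcinoma. In 3 samples (MA PANC-1 1 to 3) the cells received 40 μM maslinic acid (MA), a plant triterpene, for 24 h, and the 3 control samples (PANC-1 1 to 3) are labelled untreated, at 0 μM. All 6 were grown in the same medium with serum, and the general methods of the study give DMSO as the alternative to MA, so the labels and the methods leave it unclear whether the sequenced controls received this vehicle. The samples are described as biological replicates of 1 cell line in culture. By that description they hold none of the stroma or immune cells of a tumor, which was not tested.

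Epithelial cells are held together by adherens junctions, tight junctions and desmosomes, and their keratin filaments are anchored at the desmosomes. In the epithelial to mesenchymal transition, repressors of the SNAI and ZEB families bind short E-box motifs in the promoters of junction genes, E-cadherin gives way to N-cadherin, and vimentin filaments take over from keratins. Many carcinoma cells hold features of both states at once, which is often called a hybrid or partial transition, and PANC-1 is widely used as a carcinoma line of mesenchymal character.

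Levels are given as FPKM, estimated counts scaled by gene length and by depth, which allows genes to be compared with each other. The estimated counts summed to 70275355, 65607669 and 59422939 in PANC-1 1, 2 and 3, and to 56978375, 63984133 and 58181114 in MA PANC-1 1, 2 and 3. In every sample this is more than the number of valid reads the study lists, so an estimated count cannot be taken as a single read, and a CPM or a floor made from it is on the scale of these estimates. Differences between the groups are log2 fold changes of MA PANC-1 over PANC-1 with their standard errors (SE), from edgeR's quasi-likelihood test on the counts of the 17774 genes averaging 0.1 FPKM or more, and p-values were adjusted by Benjamini-Hochberg over all of them. In a principal component analysis over these genes, MA PANC-1 2 stood apart. It lay at −73.6 on the first component, which held 26.4% of the variance, whereas the other samples lay between −29.5 and 44.9. Results that rest on that sample are therefore given with and without it.

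Markers of other cell types were read in the same samples. Of 5 pancreatic ductal markers, KRT7, KRT8, KRT18, KRT19 and SOX9, the first 4 of which are among the 39 genes, 1 had a mean FPKM below 0.1, namely KRT19, although it is used to define ductal cells, and the sum of the 5 lay between 434 and 566 FPKM in every sample, most of it from KRT18. All 6 acinar markers, all 4 endothelial markers and all 5 leukocyte markers had means below 0.1. SYP, a synaptic vesicle gene of endocrine cells, reached 1.94 FPKM and the other 4 endocrine markers were below 0.1. Of 6 fibroblast markers 4 averaged 0.1 FPKM or more. COL3A1, a fibrillar collagen chain, had the highest mean at 14.1 FPKM, COL1A1 had 4.51 ± 1.28 in PANC-1 and 3.58 ± 0.935 in MA PANC-1, and LUM, encoding lumican, 0.577 ± 0.0547 and 0.449 ± 0.14. COL1A2 had 361, 0 and 0 estimated counts in PANC-1 1 to 3 and 228, 351 and 0 in MA PANC-1 1 to 3, so that 3 samples of both groups held all of it. DCN and PDGFRB were below 0.1. The 6 markers summed to 20.2, 17.9 and 25.6 FPKM in PANC-1 1 to 3 and to 18.8, 17.3 and 13.8 FPKM in MA PANC-1 1 to 3, with overlapping groups.

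PANC-1 cells carried strong epithelial and mesenchymal transcripts side by side. The highest of the 39 genes was VIM, encoding vimentin, the intermediate filament protein of mesenchymal cells, at rank 35 among the 17774 tested genes in the control group. KRT18 and KRT8, which encode the keratin pair of simple epithelium, followed at ranks 74 and 126. Of the 39 genes, 13 had a mean of 10 FPKM or more and 24 of 1 FPKM or more, while EPCAM, KRT19, CLDN3, GRHL2, ZEB2 and TWIST1 stayed below 0.1 and were not tested. A count of 0 in a sample allows up to 0.171 to 0.211 CPM (counts scaled to the total of the sample), depending on the sample, taking 12 counts as the floor (3 steps of 4) because estimated counts of 4, 8 and 12 were more frequent than the whole numbers beside them, and this covers counting error only.

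**Figure D1:**
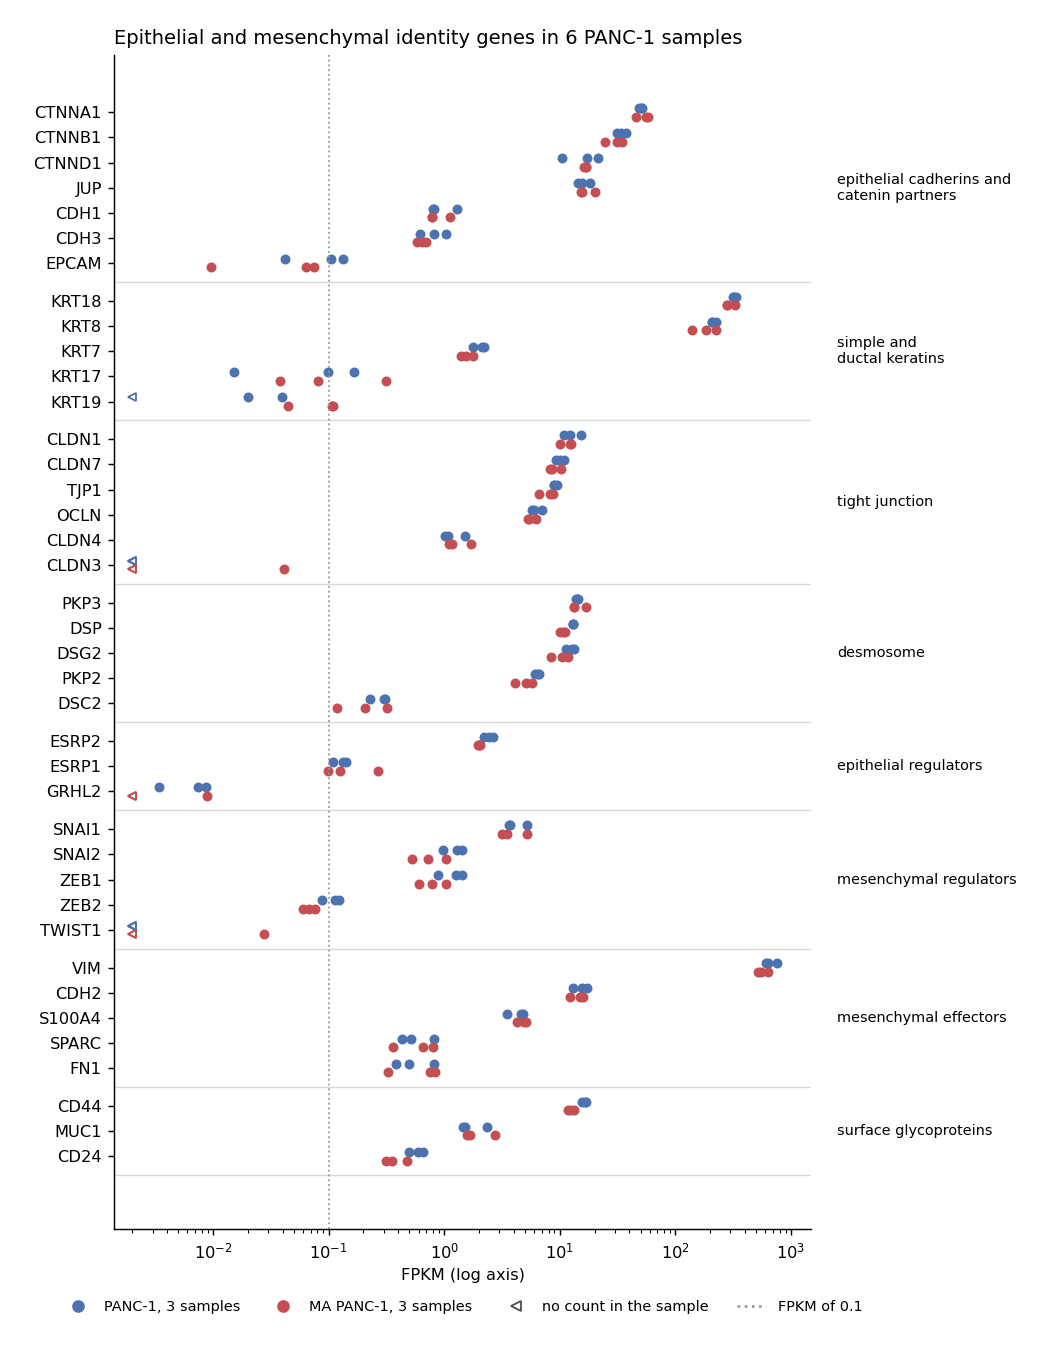
FPKM of the 39 genes on a log axis, grouped by role, with 1 point per sample, 3 PANC-1 samples in blue and 3 MA PANC-1 samples in red. Triangles mark samples without a count and can lie on top of each other, and the dotted line marks 0.1 FPKM. The levels span from means under 0.1 FPKM for EPCAM and TWIST1 to between 521 and 754 FPKM in single samples for VIM. The groups overlap for most genes.

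After MA, the identity genes differed little. Of the 33 genes tested, 4 passed an unadjusted p-value of 0.05 (12.1%), all of them lower, against 11.2% of all genes tested in either direction with 5.86% lower and 5.37% higher. These 4 were DSP and PKP2 of the desmosome, the repressor SNAI2 and the hyaluronan receptor CD44. In RNA of whole cultures, fewer cells of a kind and less RNA per cell cannot be told apart. None of the 33 passed after Benjamini-Hochberg adjustment of edgeR's p-values, which 7 genes of all tested did (0.0394%), and none passed it with DESeq2 or limma. None met the thresholds the study used for differentially expressed genes (DEGs), a ratio of 2 or more, or of 0.5 or less, beside an unadjusted p-value under 0.05. With the filter and test used here, 342 genes met them (1.92%, with 1.25% lower and 0.675% higher). The study reported fewer DEGs, from edgeR or DESeq2, and the reason for the difference was not tested. The median log2 fold change of the 33 was −0.12, with a range of −0.66 to 0.72 and with 22 values below 0 and 11 above, and 50.2% of all genes tested lay below 0. With 3 samples in each group an exact two-sided permutation test cannot give a p below 0.1, so only the test across all genes could pass the threshold.

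In CPM scaled by edgeR's TMM factors, the groups did not overlap for 6 of the 33 genes. The 3 MA PANC-1 samples lay below all 3 PANC-1 samples for TJP1, DSP, PKP2, ESRP2, CD44 and CD24, and above them for none. Of all genes tested, 10.2% were separated in the lower direction and 10.4% in the higher. The deposited FPKM separated the same 6 genes. Of these, CD24 had a mean below 1 FPKM and is named after its values were seen.

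**Figure D2:**
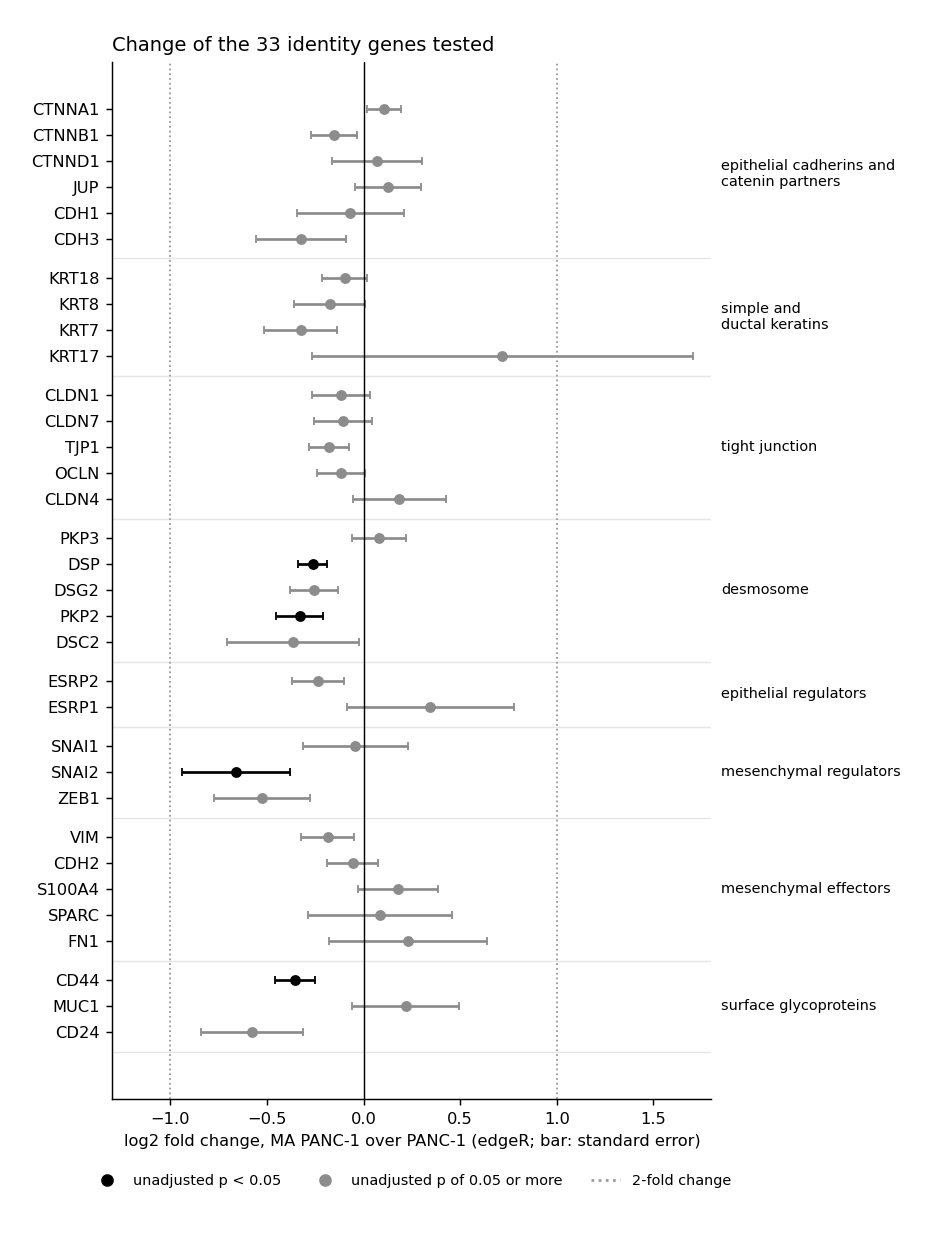
Log2 fold change of MA PANC-1 over PANC-1 (horizontal axis, bars: SE) for the 33 genes tested with edgeR. Black points mark the 4 genes with an unadjusted p under 0.05, all left of 0, and no point lies beyond the dotted lines of a 2-fold change.

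The epithelial cadherins and their catenin partners hold adherens junctions together and tie them to actin. None of the 6 members tested passed the test, and their median log2 fold change was −0.00041, or −0.18 without PANC-1 2. CDH1, encoding E-cadherin (chromosome 16, 68737292 to 68835537 in GRCh38), was scarce, at 1.28, 0.795 and 0.818 FPKM in PANC-1 1 to 3 and 0.778, 1.12 and 0.783 FPKM in MA PANC-1 1 to 3. In each group a single sample lay above the other 2, and the groups overlapped. Its log2 fold change was −0.07 ± 0.28 (SE, n = 3 per group, edgeR adjusted p = 0.942), and its sign turned when PANC-1 1, MA PANC-1 1 or MA PANC-1 3 was left out.

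CDH3, encoding P-cadherin, lies on the same strand of chromosome 16 and ends 36999 bases before CDH1. It was also low, with means of 0.823 ± 0.210 FPKM in PANC-1 and 0.639 ± 0.0585 FPKM in MA PANC-1 (SD, n = 3). EPCAM, an adhesion protein of the epithelial surface, had 28, 21 and 8 estimated counts in PANC-1 1 to 3 and 13, 2 and 12 in MA PANC-1 1 to 3. It averaged below 0.1 FPKM, 3 of the 6 samples held no more than 12 counts, and no fold change is given.

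The catenins were far more abundant than the epithelial cadherins they bind. CTNNA1, encoding alpha-catenin, was the highest, with 50.6, 49.0 and 51.7 FPKM in PANC-1 1 to 3 and 57.7, 45.6 and 56 FPKM in MA PANC-1 1 to 3. MA PANC-1 2 lay below the controls and the other 2 treated samples above them. The log2 fold change was 0.11 ± 0.09 (edgeR adjusted p = 0.662) with all samples, 0.06 without MA PANC-1 1, and 0.17 without MA PANC-1 2, where it passed the unadjusted threshold. CTNNB1, encoding beta-catenin, had means of 34.3 ± 3.09 and 30.2 ± 5.05 FPKM in PANC-1 and MA PANC-1, CTNND1, encoding p120-catenin, 16.3 ± 5.56 and 16.6 ± 0.396, and JUP, encoding plakoglobin of both adherens junctions and desmosomes, 16.1 ± 1.95 and 17 ± 2.84. For all 3 genes the groups overlapped.

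CDH2, encoding N-cadherin, binds the same catenins and belongs to the mesenchymal side. It was present at 15.6, 13.1 and 17.3 FPKM in PANC-1 1 to 3 and at 16, 12.2 and 15.1 FPKM in MA PANC-1 1 to 3. The second sample was the lowest in both groups and the groups overlapped, with a log2 fold change of −0.06 ± 0.13 (edgeR adjusted p = 0.894). The sign turned without MA PANC-1 2, at 0.019, and without PANC-1 3, at 0.040. The ratio of N-cadherin to E-cadherin transcript, in FPKM, ran from 10.9 in MA PANC-1 2 to 21.2 in PANC-1 3, with means of 16.6 ± 4.54 in PANC-1 and 16.9 ± 5.25 in MA PANC-1. The cadherin balance thus lay on the side of N-cadherin in all 6 samples, and its spread within each group was larger than the distance between the group means.

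Tight junctions seal the space between epithelial cells, with claudins and occludin in the membrane and ZO-1 as their scaffold. None of the 5 members tested passed, and their median log2 fold change was −0.12, or −0.019 without PANC-1 2. CLDN1 was the highest, at 11, 15.3 and 12.3 FPKM in PANC-1 1 to 3 and at 12.4, 10.0 and 12.4 FPKM in MA PANC-1 1 to 3. The groups overlapped, and the log2 fold change was −0.12 ± 0.15 (edgeR adjusted p = 0.779). It was −0.056 without MA PANC-1 2 and turned to 0.030 without PANC-1 2.

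TJP1, encoding ZO-1, was the tight junction gene whose groups did not overlap. It had 8.97, 9.45 and 8.94 FPKM in PANC-1 1 to 3 and 8.30, 6.62 and 8.73 FPKM in MA PANC-1 1 to 3. All 3 treated samples lay below the controls, but MA PANC-1 3, at 8.73 FPKM, was close to PANC-1 3, at 8.94 FPKM. MA PANC-1 2 was the lowest. The difference of −0.18 ± 0.10 on the log2 scale did not pass (edgeR adjusted p = 0.518), and it was −0.10 without MA PANC-1 2.

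Of the other tight junction genes, CLDN7 had means of 10.0 ± 0.806 and 9.03 ± 1.10 FPKM in PANC-1 and MA PANC-1 and OCLN, encoding occludin, 6.26 ± 0.704 and 5.64 ± 0.493, with overlapping groups. CLDN3 and CLDN4 are neighbours on chromosome 7, 29271 bases apart. CLDN4 was expressed at 1.20 ± 0.266 FPKM in PANC-1 and 1.33 ± 0.326 FPKM in MA PANC-1. CLDN3 had no count in 5 samples and 4 counts in MA PANC-1 3, under the floor.

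Desmosomes are spot junctions in which desmosomal cadherins bind plakoglobin and plakophilins, and desmoplakin links these to keratin filaments. With DSP and PKP2, this group held 2 of its 5 members past the unadjusted threshold, both lower, against 5.86% of all genes tested, and its median log2 fold change was −0.26, or −0.16 without MA PANC-1 2. DSP, encoding desmoplakin (chromosome 6, 7541617 to 7586714), was nearly constant in the control samples, at 13.1, 12.9 and 13.1 FPKM in PANC-1 1 to 3, and had 11.1, 9.96 and 10.7 FPKM in MA PANC-1 1 to 3. All treated samples lay below all controls, and the gap between the groups was larger than the range within either. Its log2 fold change was −0.26 ± 0.08 (edgeR adjusted p = 0.388), and the unadjusted p stayed under 0.05 in all 15 alternatives tried.

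PKP2, encoding plakophilin 2 (chromosome 12, 32790745 to 32896840), had 6.48, 6.11 and 6.66 FPKM in PANC-1 1 to 3 and 5.10, 4.13 and 5.76 FPKM in MA PANC-1 1 to 3. The groups did not overlap, and MA PANC-1 2 was again the lowest sample. PKP2 differed by −0.33 ± 0.12 on the log2 scale (edgeR adjusted p = 0.431). Leaving out any 1 sample gave values from −0.42 to −0.24, and the call was lost without PANC-1 1, PANC-1 3 or MA PANC-1 1.

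DSG2, encoding the desmosomal cadherin desmoglein 2, is named after its values were seen. It had 12.7, 11.4 and 13.3 FPKM in PANC-1 1 to 3 and 10.6, 8.34 and 11.8 FPKM in MA PANC-1 1 to 3, so that MA PANC-1 3 lay above PANC-1 2 and the groups overlapped. It did not pass the unadjusted threshold with all samples (edgeR adjusted p = 0.477). It passed as lower in the fit with the replicate number as a block and in that without MA PANC-1 3. DSC2, encoding desmocollin 2, lies 395751 bases from DSG2 on chromosome 18, and its FPKM was 0.281 ± 0.0452 in PANC-1 and 0.215 ± 0.10 in MA PANC-1. Desmoglein 2 was thus the main desmosomal cadherin of this pair in these cells.

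PKP3, encoding plakophilin 3, was the most abundant of these 5 genes and did not follow DSP and PKP2. It had 14.0, 13.9 and 14.3 FPKM in PANC-1 1 to 3 and 13.3, 16.8 and 13.2 FPKM in MA PANC-1 1 to 3. MA PANC-1 2 was the highest of all samples and the other 2 treated samples were the lowest. Its log2 fold change was 0.08 ± 0.14 (edgeR adjusted p = 0.847), and −0.09 without MA PANC-1 2.

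**Figure D3:**
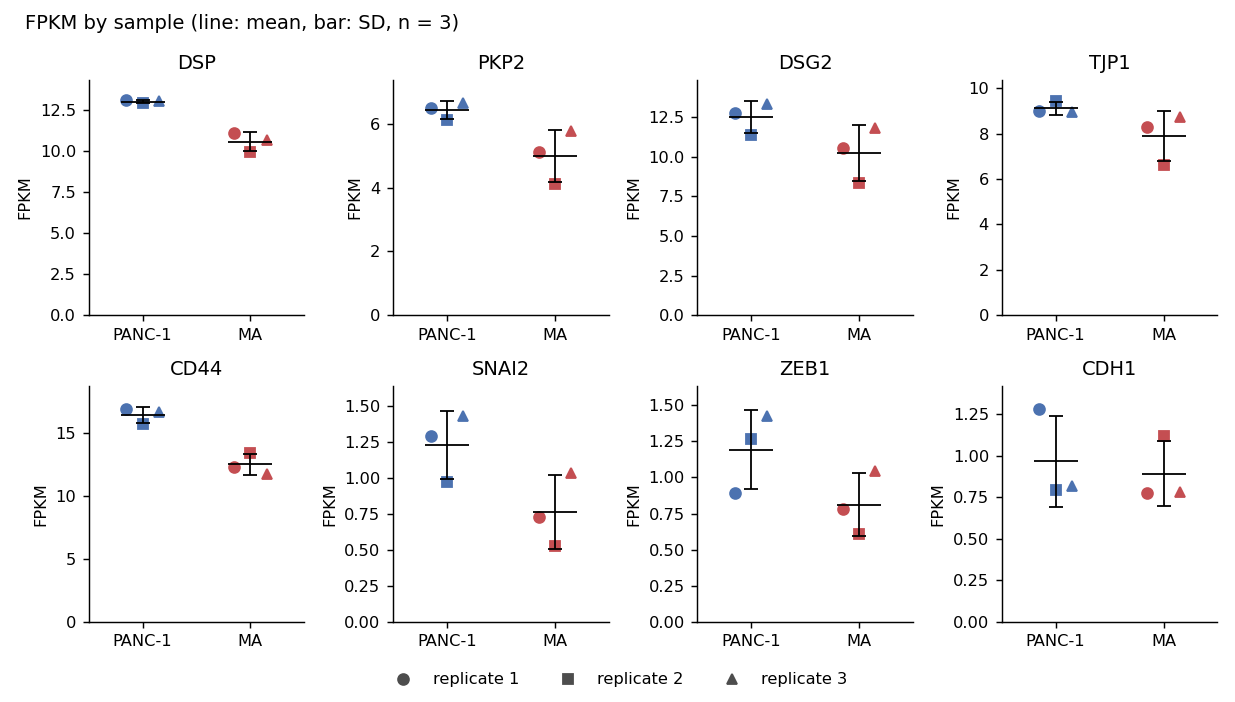
FPKM of 8 genes in each of the 6 samples, with replicates 1, 2 and 3 as circles, squares and triangles, and with the group mean (long line) and SD (bar, n = 3). The treated samples lie below all controls for DSP, PKP2, TJP1 and CD44, and the groups overlap for DSG2, SNAI2, ZEB1 and CDH1.

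The sequences before the RefSeq starts of DSP and DSG2 are shown because the desmosome held the most members past the unadjusted threshold. Another reason was that the motif bound by SNAI and ZEB repressors could be read in them. DSG2 did not pass that threshold, and PKP2, which did, had no matched RefSeq start. The sequences shown thus do not stand for the desmosome genes as a set. Capitals mark CAGGTG or, on the other strand, CACCTG. Positions are in GRCh38.p14 on the plus strand, DSP at chr6:7541421-7541616 (196 bases, ending where the deposited gene begins) and DSG2 at chr18:31497927-31498176 (250 bases).

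DSP: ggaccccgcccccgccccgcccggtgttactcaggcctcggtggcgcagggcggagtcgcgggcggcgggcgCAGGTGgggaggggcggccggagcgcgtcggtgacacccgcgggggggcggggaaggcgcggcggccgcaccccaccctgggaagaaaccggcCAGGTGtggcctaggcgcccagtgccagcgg

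DSG2: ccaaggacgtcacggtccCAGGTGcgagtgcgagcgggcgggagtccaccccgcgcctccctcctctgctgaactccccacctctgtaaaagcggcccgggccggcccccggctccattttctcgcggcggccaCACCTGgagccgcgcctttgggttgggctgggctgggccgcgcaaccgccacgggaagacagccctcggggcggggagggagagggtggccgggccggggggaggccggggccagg

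The motif began 178 and 85 bases before the RefSeq start of DSP and 232 and 116 bases before that of DSG2. RefSeq starts were matched for 23 of the 39 genes, with 43 windows of 250 bases in all, since several genes have more than 1 start. Of these windows 14 held CAGGTG or CACCTG (32.6%), belonging to 11 genes, against 6143 of 35116 windows of the whole table (17.5%). The AP-1 motif TGANTCA was in 2 of the 43 windows (4.65%) and in 6.57% of all. Windows of MUC1, CD24, CTNNA1 and OCLN overlap within the gene, G and C made up 80.6% and 75.2% of the DSP and DSG2 sequences shown, and a match is a description of the letters and not of a bound site.

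Keratins 8 and 18 form the filaments of simple epithelium, keratins 7 and 19 mark ducts, and keratin 17 appears in basal and stressed epithelium. None of the 4 keratins tested passed with all samples. Their median log2 fold change was −0.14, or −0.43 without MA PANC-1 2 and −0.017 without MA PANC-1 3. KRT18 had 323, 338 and 313 FPKM in PANC-1 1 to 3 and 279, 329 and 278 FPKM in MA PANC-1 1 to 3. MA PANC-1 2 lay within the control range and the other 2 treated samples lay below it. KRT18 differed by −0.10 ± 0.12 on the log2 scale (edgeR adjusted p = 0.768) with all samples, by −0.22 without MA PANC-1 2, which passed the unadjusted threshold, and by −0.03 without MA PANC-1 3 and −0.04 without MA PANC-1 1, which did not.

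KRT8 had 206, 207 and 225 FPKM in PANC-1 1 to 3 and 184, 223 and 141 FPKM in MA PANC-1 1 to 3. KRT7 had 2.13, 2.19 and 1.76 FPKM in the controls and 1.55, 1.77 and 1.40 FPKM in the treated samples, where MA PANC-1 2 again lay within the control range. KRT8 and KRT7 are named beyond the rule, after their values were seen, because like KRT18 they passed the unadjusted threshold as lower when MA PANC-1 2 was left out. KRT18 and KRT8 overlap by 1050 bases on opposite strands of chromosome 12, where KRT18 lies at 52948871 to 52952900, and whether strand was used in counting is not stated. Reads could also be shared with pseudogenes, of which the table listed 67 for KRT18 and 50 for KRT8, holding 0.153% and 1.12% of the counts summed over them and the gene, and KRT86, which overlaps KRT7, held 10.7% of their summed counts. The ratio of KRT18 to KRT7, in FPKM, was 152, 154 and 178 in PANC-1 1 to 3 and 180, 186 and 199 in MA PANC-1 1 to 3, the only 1 of 6 ratios computed whose groups did not overlap, by a narrow gap.

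The remaining ductal and basal keratins were near the lower limit. KRT19 had 0, 8 and 4 estimated counts in PANC-1 1 to 3 and 19, 21 and 9 in MA PANC-1 1 to 3, and is named beyond the rule. Its FPKM was higher in all treated samples than in all controls, but near the floor. MA PANC-1 3 had 0.0444 FPKM against 0.0398 FPKM in PANC-1 2. KRT19 was tested only without the filter on low values, and did not pass there. KRT17 lay between 0.0153 and 0.312 FPKM with the widest SE of the 33 genes, and the 8 pseudogenes listed for it held 23.8% of the counts summed over them and the gene. Among the keratins of this list, KRT8 and KRT18 of simple epithelium were thus abundant. Of those that mark ducts, there was little KRT7 and almost no KRT19.

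GRHL2 and the splicing regulators ESRP1 and ESRP2 maintain the epithelial program and its transcript isoforms. Neither of the 2 tested passed. Their median log2 fold change was 0.06, and its sign was not stable, with 0.19 without MA PANC-1 1, −0.17 without MA PANC-1 3 and −0.26 for ESRP2 alone with only genes of 1 FPKM or more. ESRP2 was the most abundant of the 3, with 2.42, 2.20 and 2.64 FPKM in PANC-1 1 to 3 and 2.04, 1.99 and 1.97 FPKM in MA PANC-1 1 to 3. The treated samples lay close together and below all controls, but the log2 fold change of −0.23 ± 0.14 did not pass (edgeR adjusted p = 0.524). Genes that overlap ESRP2 on its strand held 15.7% of their summed counts, and with these counts summed the log2 fold change was 0.27. ESRP1 had means of 0.128 ± 0.0166 and 0.163 ± 0.0895 FPKM in PANC-1 and MA PANC-1. GRHL2 had no more than 4 estimated counts in any sample.

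The SNAI, ZEB and TWIST factors repress epithelial genes or turn on mesenchymal ones. The median log2 fold change of the 3 tested was −0.52, with all 3 below 0, against 50.2% of all genes tested. The median was −0.28 with limma on log2(FPKM + 1) and −0.30 with only genes of 1 FPKM or more. The last value covers ZEB1 and SNAI1 only, since SNAI2 averaged 0.996 FPKM and was left out. Only SNAI2 passed the unadjusted threshold, against 5.86% of all genes in that direction. SNAI1, encoding Snail, was the most abundant, at 3.74, 3.63 and 5.20 FPKM in PANC-1 1 to 3 and at 3.14, 5.16 and 3.49 FPKM in MA PANC-1 1 to 3. In each group 1 sample stood above 5 FPKM, and the log2 fold change was −0.04 ± 0.27 (edgeR adjusted p = 0.962). Without MA PANC-1 2 it was −0.34, and its sign turned when MA PANC-1 1, MA PANC-1 3 or PANC-1 3 was left out.

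SNAI2, encoding Slug, had 1.29, 0.969 and 1.43 FPKM in PANC-1 1 to 3 and 0.730, 0.524 and 1.03 FPKM in MA PANC-1 1 to 3. MA PANC-1 3 lay above PANC-1 2, so the groups overlapped by 1 sample. With all samples the log2 fold change was −0.66 ± 0.28 (edgeR adjusted p = 0.444), just inside the unadjusted threshold, and it ran from −0.91 without MA PANC-1 3 to −0.48 without MA PANC-1 2. The unadjusted call was kept without PANC-1 2 or MA PANC-1 3 and lost when any of the other 4 samples was left out.

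ZEB1 had 0.891, 1.26 and 1.42 FPKM in PANC-1 1 to 3 and 0.780, 0.609 and 1.05 FPKM in MA PANC-1 1 to 3. Only MA PANC-1 3 reached into the control range, above PANC-1 1. Its log2 fold change of −0.52 ± 0.25 (edgeR adjusted p = 0.471) was just outside the unadjusted threshold. It passed that threshold in 4 of 15 alternatives, among them the fit with the replicate number as a block, where 6 of the 33 genes passed against 12.5% of all genes. ZEB2, its close relative, is named beyond the rule, after its values were seen. It fell short of the filter on low values, with 242, 178 and 219 estimated counts in PANC-1 1 to 3 and 117, 118 and 136 in MA PANC-1 1 to 3, and its FPKM did not overlap between the groups. In the fit without that filter, over 28488 genes, ZEB2 had a log2 fold change of −0.63 ± 0.24 (edgeR adjusted p = 0.565) and was lower at the unadjusted threshold, which 7.78% of those genes passed in either direction. TWIST1 had no count in 5 samples and 4 counts in MA PANC-1 1.

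Products of the mesenchymal program were led by VIM (chromosome 10, 17228241 to 17237593), with 608, 754 and 634 FPKM in PANC-1 1 to 3 and 555, 630 and 521 FPKM in MA PANC-1 1 to 3. MA PANC-1 2 lay above PANC-1 1 and the other 2 treated samples lay below all controls. VIM differed by −0.19 ± 0.14 on the log2 scale (edgeR adjusted p = 0.61) with all samples, by −0.31 without MA PANC-1 2, which passed the unadjusted threshold, and by −0.09 without PANC-1 2, which did not. The ratio of VIM to KRT18 stayed between 1.88 and 2.23 in the 6 samples, with overlapping groups.

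None of the 5 mesenchymal products passed, and their median log2 fold change was 0.08. That sign was not stable, with −0.12 without MA PANC-1 1, −0.09 without PANC-1 2 and −0.07 with only genes of 1 FPKM or more. The last value leaves out FN1 and SPARC. S100A4, a calcium-binding protein linked to motility, had means of 4.32 ± 0.693 FPKM in PANC-1 and 4.77 ± 0.447 FPKM in MA PANC-1, and S100A3, which overlaps it on its strand, held 40.2% of their summed counts. Both matrix genes of the list were scarce. FN1, encoding fibronectin, had 0.812, 0.383 and 0.496 FPKM in PANC-1 1 to 3 and 0.835, 0.754 and 0.329 FPKM in MA PANC-1 1 to 3. SPARC, encoding a collagen-binding matrix protein, had 0.81, 0.427 and 0.516 FPKM in PANC-1 1 to 3 and 0.793, 0.649 and 0.361 FPKM in MA PANC-1 1 to 3. Both genes are named beyond the rule, after their values were seen, since they were highest in PANC-1 1, MA PANC-1 1 and MA PANC-1 2, the 3 samples with counts of COL1A2. The most abundant fibroblast marker, COL3A1, did not separate these samples. It had 15.2, 13.7 and 19 FPKM in PANC-1 1 to 3 and 13.6, 12.9 and 10.5 FPKM in MA PANC-1 1 to 3. COL1A1, LUM and PDGFRB did not either, and DCN and PDGFRB averaged below 0.1 FPKM. DCN had 12, 0 and 0 estimated counts in PANC-1 1 to 3 and 4, 0 and 0 in MA PANC-1 1 to 3. Some further genes of the lists below, named after their values were seen, were also highest in these 3 samples. In PANC-1 1 to 3 and MA PANC-1 1 to 3, PRRX1 had 27, 0, 0, 7, 13 and 0 estimated counts. CDH11 had 19, 0, 0, 9, 11 and 2, and MMP14 160, 55, 39, 86, 138 and 47. POSTN and FAP had at most 8, all in these samples. The part of such markers in the values of FN1 and SPARC was not tested.

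Of the surface glycoproteins, CD44 is the receptor for hyaluronan and, with CD24, is used to sort carcinoma cell subsets. The median log2 fold change of the 3 genes was −0.35. It was −0.20 with limma on log2(FPKM + 1) and −0.087 with only genes of 1 FPKM or more, which leaves out CD24. CD44 alone passed the unadjusted threshold, against 5.86% of all genes tested in that direction. CD44 (chromosome 11, 35138870 to 35232402) had 16.9, 15.7 and 16.6 FPKM in PANC-1 1 to 3 and 12.3, 13.4 and 11.8 FPKM in MA PANC-1 1 to 3. The groups were apart by more than the range within either. Its log2 fold change was −0.35 ± 0.10 (edgeR adjusted p = 0.388), it ran from −0.45 to −0.29 when single samples were left out, and the unadjusted p stayed under 0.05 in all 15 alternatives.

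CD24, a small adhesion protein, had 0.592, 0.492 and 0.659 FPKM in PANC-1 1 to 3 and 0.473, 0.317 and 0.352 FPKM in MA PANC-1 1 to 3. Its groups did not overlap either, though PANC-1 2 and MA PANC-1 1 were close, and the unadjusted threshold was not passed (edgeR adjusted p = 0.466). The ratio of CD44 to CD24 lay between 25.3 and 42.4 in all samples, with overlapping groups. MUC1, a mucin of the apical surface, had means of 1.77 ± 0.495 and 2.02 ± 0.660 FPKM in PANC-1 and MA PANC-1, with a single high sample in each group.

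MA PANC-1 2 was often at the edge, in the 33 genes as in all genes. In CPM scaled by edgeR's TMM factors, it was the lowest of the 6 samples for 11 of the 33 and the highest for 8. Over all genes tested it was lowest for 27.7% and highest for 28.3%. In the same scaled CPM, MA PANC-1 3 was the lowest for 13 of the 33, against 14.2% of all genes. Among these were CDH1, KRT8, KRT18, DSP, VIM and CD44. MA PANC-1 3 was the highest for 3, against 14.9%. In FPKM, DSP was lowest in MA PANC-1 2 and CDH1 was lowest in another treated sample. MA PANC-1 2 was lowest for CTNNB1, CTNNA1, CLDN1, TJP1, DSG2, PKP2, ZEB1, SNAI2 and CDH2 among others. In the scaled CPM it was highest for KRT8, KRT18, CLDN7, JUP, PKP3 and SNAI1 among others. In FPKM, MA PANC-1 2 lay below a control for KRT8, KRT18, CLDN7 and SNAI1. Without it, 8 of the 33 genes passed the unadjusted threshold of edgeR against 10.3% of all genes tested, with CD44, DSP, PKP2, KRT7, KRT8, KRT18 and VIM lower and CTNNA1 higher, and the groups of 15 genes did not overlap, against 30.3% of all genes.

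The other samples moved the counts as well. Without PANC-1 3 only DSP and CD44 passed, against 6.76% of all genes, and the groups of 7 genes did not overlap, against 28.9%. Without MA PANC-1 3 it was 6 genes, CD44, DSG2, DSP, PKP2, SNAI2 and ZEB1, against 18.1% of all genes, and the groups of 12 did not overlap, against 39.3%. Without PANC-1 1, PANC-1 2 or MA PANC-1 1, the genes that passed numbered 3, 4 and 3, against 6.63%, 7.72% and 7.93% of all genes, and those whose groups did not overlap 9, 9 and 6, against 28.1%, 31.3% and 27.8%. What sets these samples apart was not tested.

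**Figure D4:**
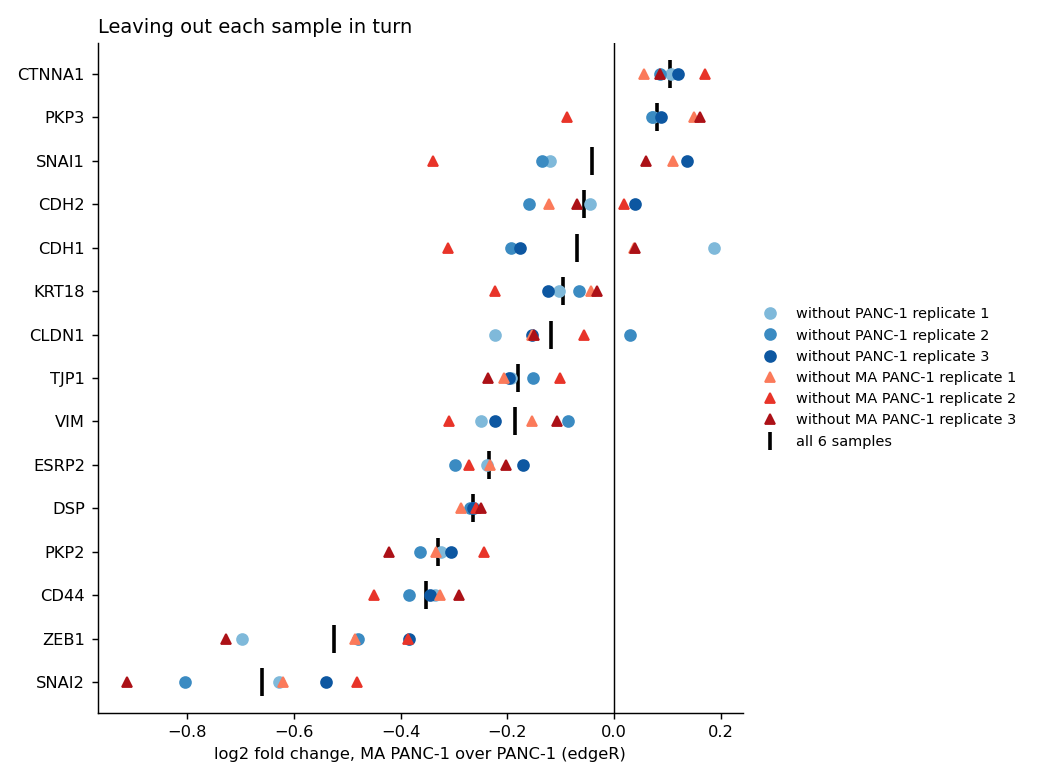
Log2 fold change of MA PANC-1 over PANC-1 (edgeR) for 15 genes with all 6 samples (black bars) and with each sample left out (blue circles for PANC-1, red triangles for MA PANC-1). The values of DSP stay between −0.29 and −0.25 and those of SNAI2 spread from −0.91 to −0.48, while CDH1, CDH2, CLDN1, PKP3 and SNAI1 have values on both sides of 0.

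A further 123 genes of the same junctions, filaments and programs were read in 6 lists, and 77 of them were tested. Of these, 14 were lower and 6 higher at an unadjusted p under 0.05 with edgeR (26.0%, against 11.2% of all genes tested), and none passed after adjustment. The median log2 fold change of the 77 was −0.03. The lists were composed with earlier results of these data known, so this share is a description.

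At the unadjusted threshold, 5.86% of all genes tested were lower and 5.37% higher. Among the junction genes, 3 of 18 tight junction and polarity genes passed, with DLG1 lower and PRKCZ and LLGL2 higher. Of 10 adherens junction and desmosome genes 2 passed, NECTIN1 and PPL, both higher. These genes, and all others below except KRT15, KRT81 and CEACAM1, are named after their values were seen. PPL, encoding periplakin, which like desmoplakin links junctions to filaments, had 15.9, 15.8 and 14.6 FPKM in PANC-1 1 to 3 and 19.3, 21.4 and 19.2 FPKM in MA PANC-1 1 to 3. All treated samples lay above all controls, the opposite side from DSP, with a log2 fold change of 0.41 ± 0.10 (edgeR adjusted p = 0.388).

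Of 10 other epithelial keratins and surface genes, KRT15, KRT81 and CEACAM1 were lower by more than 2-fold. They met the DEG thresholds, as 1.25% of all genes tested did in that direction. AP1M2, an adaptor of sorting to the epithelial basolateral membrane, was higher, as 5.37% of all genes tested were at the unadjusted threshold. KRT81, a hair keratin, had 1.57, 1.63 and 1.43 FPKM in PANC-1 1 to 3 and 0.615, 0.790 and 0.571 FPKM in MA PANC-1 1 to 3, with a log2 fold change of −1.18 ± 0.24 (edgeR adjusted p = 0.345). The groups were far apart, but KRT81 is nearly identical to KRT86, so its reads may be split between them. KRT15, a keratin of basal cells, had 0.327, 0.403 and 0.348 FPKM in the controls and 0.178, 0.113 and 0.163 FPKM in the treated samples. CEACAM1, an adhesion molecule of the epithelial surface, had 0.342, 0.377 and 0.354 FPKM in the controls and 0.209, 0.156 and 0.0874 FPKM in the treated samples. Both were weakly expressed, with log2 fold changes of −1.19 (KRT15) and −1.19 (CEACAM1).

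Of 10 other epithelial transcription and splicing factors, KLF4 and KLF5 were lower and GRHL3, a relative of GRHL2, was higher. Of all genes tested, 5.86% were lower and 5.37% higher at the unadjusted threshold. Of 10 other mesenchymal transcription factors, HMGA2, ETS1 and SOX9 were lower and none was higher, against 5.86% and 5.37% of all genes tested, although SOX9 is also 1 of the 5 ductal markers above. HMGA2, a chromatin protein that turns on SNAI and TWIST genes, had 20.2, 18.7 and 19.8 FPKM in PANC-1 1 to 3 and 10.8, 8.85 and 13 FPKM in MA PANC-1 1 to 3. It had the smallest p of the 2 mesenchymal lists, with a log2 fold change of −0.82 ± 0.12 (edgeR adjusted p = 0.158).

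Of 19 other mesenchymal products, TGFBI, CALD1, NT5E, SPOCK1 and THBS1 were lower and none was higher at the unadjusted threshold, against 5.86% and 5.37% of all genes tested. NT5E, encoding the surface nucleotidase CD73, had 54.3, 54.8 and 52.3 FPKM in PANC-1 1 to 3 and 30.8, 26.8 and 38.5 FPKM in MA PANC-1 1 to 3. All treated samples were well below the controls, with a log2 fold change of −0.72 ± 0.12 (edgeR adjusted p = 0.196). SPOCK1, a matrix proteoglycan, had 3.33, 4.01 and 4.53 FPKM in the controls and 1.74, 1.96 and 2.61 FPKM in the treated samples, with a log2 fold change of −0.88 ± 0.19 (edgeR adjusted p = 0.346).

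**Figure D5:**
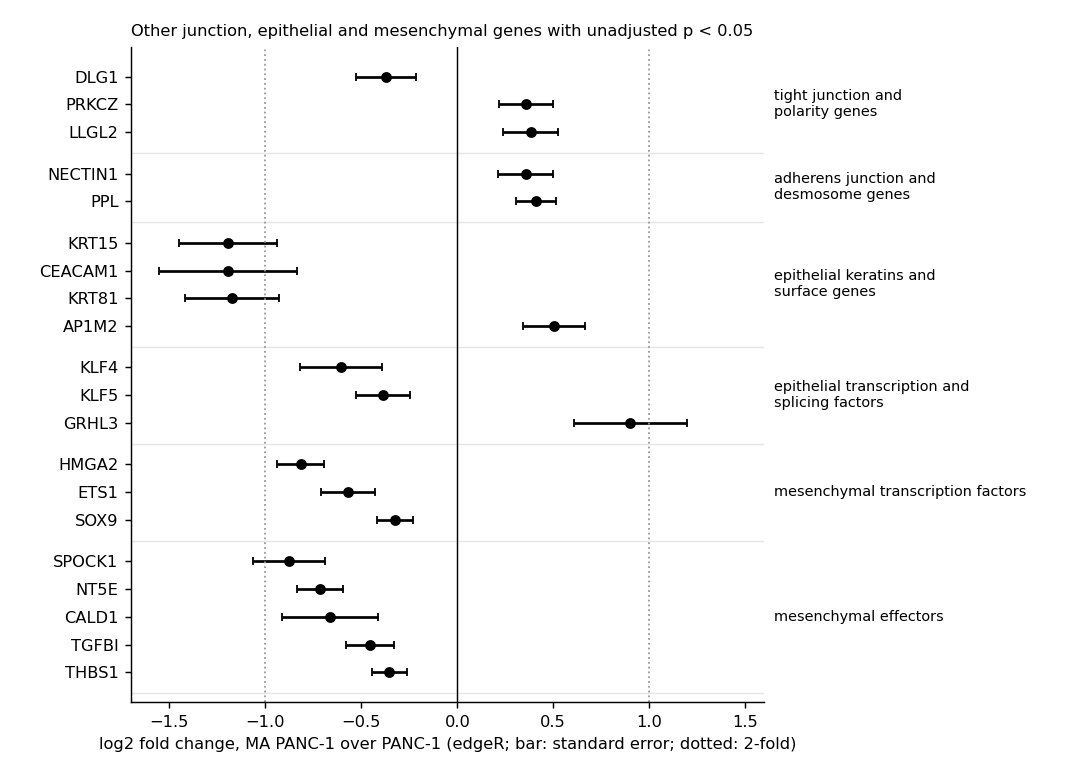
Log2 fold change of MA PANC-1 over PANC-1 (horizontal axis, bars: SE) for the 20 genes of the 6 further lists with an unadjusted edgeR p under 0.05. KRT15, KRT81 and CEACAM1 lie beyond a 2-fold change (dotted), all points of the 2 mesenchymal lists lie left of 0, and of the 4 epithelial lists 3 hold points on both sides and the adherens junction and desmosome list only points right of 0.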

How the data were processed

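RNA-seq was performed on 3 MA-treated and 3 untreated PANC-1 samples, grouped as labelled. The authors deposited FPKM, scaled by gene length and depth, with 0.0001 for a gene without reads. They also deposited estimated counts, whole numbers that were not normalized. The submitters' processing notes name cutadapt 1.9, HISAT2 2.0.4, StringTie 1.3.4d, edgeR and DESeq2 without their roles, and the annotation release is not given in the sources used here. Of 58552 identifiers shared with GENCODE release 29 on GRCh38, 47519 had the same interval, 16 of the 39 genes among them. Promoter windows come from RefSeq (GRCh38.p14).

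Counts of the 17774 genes averaging 0.1 FPKM or more were tested as deposited with edgeR 4.0.16 (TMM, quasi-likelihood, R 4.3.3) and adjusted by Benjamini-Hochberg. The biological coefficient of variation was 0.307. The SE is the log2 fold change divided by the square root of F. Alternatives were limma 3.58.1 on log2(FPKM + 0.1) or log2(FPKM + 1), DESeq2 1.42.0, RLE size factors, other filters, overlapping genes summed, a block for the replicate number, fits without each sample and, added after seeing the data, counts divided by 4. Tables and plots used Python 3.11.15, pandas 2.3.3 and matplotlib 3.10.9.

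Genes named with their values in each sample are those with an unadjusted p under 0.05, those averaging 1 FPKM or more whose groups did not overlap, the most abundant of each list, and CDH1, CDH2, EPCAM, VIM and ZEB1, and in the further lists those past the DEG thresholds. Genes named beyond this rule are said to be. Another item of these lists is not reported here. The members and lists were chosen with earlier results of these data known.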

Additional observations from a re-analysis of the deposited data

How the results depend on the processing

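For the 15 genes named by rule, 223 alternative values were computed, of which 198 kept their direction and side of the unadjusted threshold, 7 gained the threshold, 7 lost it and 11 changed sign, and 9 of the 15 genes kept their sign throughout. Against 7 genes past the adjusted p, DESeq2 gave 263, a filter at 1 FPKM gave 12 and the replicate block gave 0. Against 342 DEGs, limma on log2(FPKM + 1) gave 44, the filter at 1 gave 93 and no filter gave 569. The median of the epithelial regulators (0.06) was −0.073 with limma on log2(FPKM + 1) and −0.26 with the filter at 1, and that of the surface glycoproteins (−0.35) was −0.20 and −0.087. That of the mesenchymal effectors (0.08) was −0.075 with the filter at 1. These medians with the filter at 1 cover fewer genes. It left ESRP2 alone of the epithelial regulators, CD44 and MUC1 of the surface glycoproteins, and CDH2, VIM and S100A4 of the mesenchymal effectors. ESRP2 was at 0.27 when the counts of overlapping genes were added to its own. What else moved these values was not tested.

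Leaving out 1 sample gave 326 to 534 DEGs, 3 to 24 genes past the adjusted p, 1178 to 3213 past the unadjusted p and 4943 to 6988 genes whose groups did not overlap, fewer samples being compared. Of the 33 genes tested, 2 to 8 passed the unadjusted p, 0 the adjusted p, and 6 to 15 did not overlap. In the same fits 6.63% to 18.1% of all genes passed the unadjusted p, and 27.8% to 39.3% did not overlap. List medians ran from −0.18 to 0.078 for the cadherins and catenins, −0.43 to −0.017 for the keratins, −0.18 to −0.019 for the tight junction, −0.35 to −0.16 for the desmosome, −0.17 to 0.19 for the epithelial regulators, −0.73 to −0.38 for the mesenchymal regulators, −0.12 to 0.27 for the mesenchymal effectors and −0.45 to −0.29 for the surface glycoproteins. Single genes that changed sign ran from −0.31 to 0.19 (CDH1), −0.22 to 0.030 (CLDN1), −0.088 to 0.16 (PKP3), −0.34 to 0.14 (SNAI1) and −0.16 to 0.040 (CDH2).

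Same-numbered samples of the 2 groups correlated at 0.0294, 0.0502 and 0.0724 in their deviations from the group means, so the samples share a number rather than a known pairing, although each correlated best with its own number. Under the replicate block 6 of the 33 genes passed the unadjusted p, against 12.5% of all genes, DSG2 and ZEB1 beside the 4. Summing identifiers that share a name gave nothing, since each name had 1. Below about 12 counts, depth could not show a difference, which covers EPCAM, KRT17, KRT19, CLDN3, GRHL2 and TWIST1 in some or all of the samples.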
